A study of Rattus norvegicus with 12 samples.

Results

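The genes followed here encode the class II branch of antigen presentation in the rat: the chains RT1-Ba, RT1-Bb, RT1-Da and RT1-Db1, the invariant chain Cd74, the peptide editor chains RT1-DMa and RT1-DMb, and the coactivator Ciita. They were found by name: every non-control probe that the array files name as 1 of these 8 genes was taken, which gave 10 of 30367 probes, and its flag for signal above background was read on each of the 12 arrays. The set was picked on earlier results from the same log2 levels, over all 4 groups, so the tests and counts of members below describe its course and are not independent support for it. A probe entered the tests only if some group had all 3 of its arrays above background. That held for 8 member probes of 6 genes, among 18997 kept probes and 14376 tested genes in all, while RT1-Ba and Ciita did not pass.

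Total RNA came from cultured heart muscle cells of newborn rats, a primary preparation of unstated strain. All cultures grew for 24 h in DMEM with 10% fetal calf serum, penicillin, streptomycin and L-glutamine, and all sat on flexible silicone plates coated with collagen type I. The 3 control cultures were left unstretched; the other groups, with 3 cultures each, were stretched in pulses, biaxially and by 20%, for 2 h, 6 h or 24 h. The cultures are labelled as biological replicates, but separate cell isolations are not stated, so the p-values measure the spread between these cultures. The same controls serve every stretch time and have no labelled culture time, so stretch and time in culture cannot be told apart. The arrays lay on 2 slides: controls, the 2 h group and 6 h replicates 1 and 2 on the first, 6 h replicate 3 and the 24 h group on the second. Between 64.7% and 70.6% of spots were above background on each array and 0 were saturated. Markers of the labelled cell type were present. All 10 cardiomyocyte genes on a marker list, among them Tnnt2, Myh6 and Actn2, were measured. Their summed level in the controls was 937.4 to 1012 times the 75th percentile of the array. Markers of other heart cells were present too, with sums of 168.4 to 180.5 for 8 fibroblast genes and 2.891 to 3.089 for 8 endothelial genes. Such sums do not give shares of cells.

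Class II molecules are heterodimers of an alpha and a beta chain that display peptides from ingested or endosomal protein to CD4+ T cells. In the rat, RT1-B corresponds to human HLA-DQ and RT1-D to human HLA-DR. Cd74 fills the groove of new dimers and guides them to endosomes, where cathepsins cut it down, and the DM heterodimer exchanges its remnant for antigenic peptide. Dendritic cells, B cells and macrophages, including the resident macrophages of the heart, carry these molecules constitutively, and interferon-gamma induces them in other cells through Ciita.

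Ciita does not bind DNA itself. It is recruited to an X box, bound by the RFX complex, and a Y box, bound by NF-Y, which lie a fixed distance apart in class II promoters. The RefSeq promoter table used (assembly GRCr8, 33469 promoters) held 6 of the 8 members, all but Ciita and RT1-DMb. The Y box core ATTGG, searched on both strands of the 250 bases before the start, was in 6 of these 6 promoters and in 34% of all promoters. The X box core TAGNNAC was in 3 of 6 and in 27.5% of all, and an X core 25 to 45 bases ahead of a Y core on the same strand was in 2 of 6, RT1-Da and RT1-Db1, and in 0.66% of all. A looser X core, GNNAC followed 3 bases later by TG, which begins with the letters that end TAGNNAC, was chosen after the promoters had been read. With it the pair was in 4 of 6 promoters and in 0.825% of all. These 4 windows are shown because they hold the paired boxes of 4 genes whose levels are followed below. Capitals mark the X and then the Y match, 5′ to 3′ on the strand of the gene.
RT1-Da, chr20:4515321-4515385, plus strand, GRCr8: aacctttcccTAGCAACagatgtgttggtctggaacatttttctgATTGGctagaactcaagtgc
RT1-Db1, chr20:4560223-4560286, minus strand, GRCr8: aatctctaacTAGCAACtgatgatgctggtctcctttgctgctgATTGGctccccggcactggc
RT1-Bb, chr20:4604160-4604221, minus strand, GRCr8: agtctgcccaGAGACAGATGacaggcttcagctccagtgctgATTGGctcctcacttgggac
RT1-DMa, chr20:4712380-4712442, minus strand, GRCr8: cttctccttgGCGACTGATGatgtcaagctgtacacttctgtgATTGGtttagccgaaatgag
The first bases of the X and Y matches were 35 bases apart in RT1-Da, 34 in RT1-Db1, 32 in RT1-Bb and 33 in RT1-DMa. The Y match began 49, 80, 61 and 64 bases before the annotated start in the same order. A match to these letters describes the sequence and does not show that a factor was bound in these cells.

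Levels are given as percent of the 75th percentile of the processed signal on the same array, and are compared between groups for 1 probe at a time, since probes differ in how brightly they bind. Differences are on the log2 scale with standard errors from a limma fit with n = 3 arrays per group, and adjusted p-values come from the Benjamini-Hochberg method over 14376 genes. The threshold for a call was an adjusted p of 0.05.

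Group means of the 6 tested class II genes lay above control at 2 h, below it at 6 h and further below it at 24 h; with arrays scaled on spike-in probes, 4 of the 6 lay above control at 6 h and RT1-DMa also at 24 h. At 24 h Cd74, RT1-Bb and RT1-Da were at or near background, RT1-DMb was 2.30-fold lower than control, and RT1-Db1 and RT1-DMa were lower by smaller amounts. Over all 4 groups the moderated F test called 6 of 6 tested members, with adjusted p between 2.55e-07 and 4.58e-04, against 52.8% of all genes.

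By comparison, 1 of the 6 tested members was called higher at 2 h (RT1-Da) and 0 lower. The share called was 9.2% of all genes in either direction and 3.1% in the higher direction, and 5 of 6 members had no overlap between groups where 28.6% of all genes had none. At 6 h 3 of 6 were called lower (Cd74, RT1-DMa and RT1-DMb) against 11.7% of all genes (16.8% in either direction), and 4 of 6 did not overlap against 39.4%. At 24 h 6 of 6 were called lower against 31.7%, and 6 of 6 did not overlap against 58.9%. A fitted fall of at least 2-fold was seen at 24 h in 4 of 6 members and in 2.82% of all genes. The median log2 difference of the tested members was 0.33 at 2 h, -0.46 at 6 h and -1.92 at 24 h. At 24 h it was -1.27 with RT1-Bb and RT1-Da raised to a floor explained below. The median of all genes was -0.01, -0.05 and -0.08 in the same order of times. RT1-Da reached the tests only through a group in which it was high, and the members' course was known when they were chosen, so nothing is read from these counts beyond the values.

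**Figure D1:**
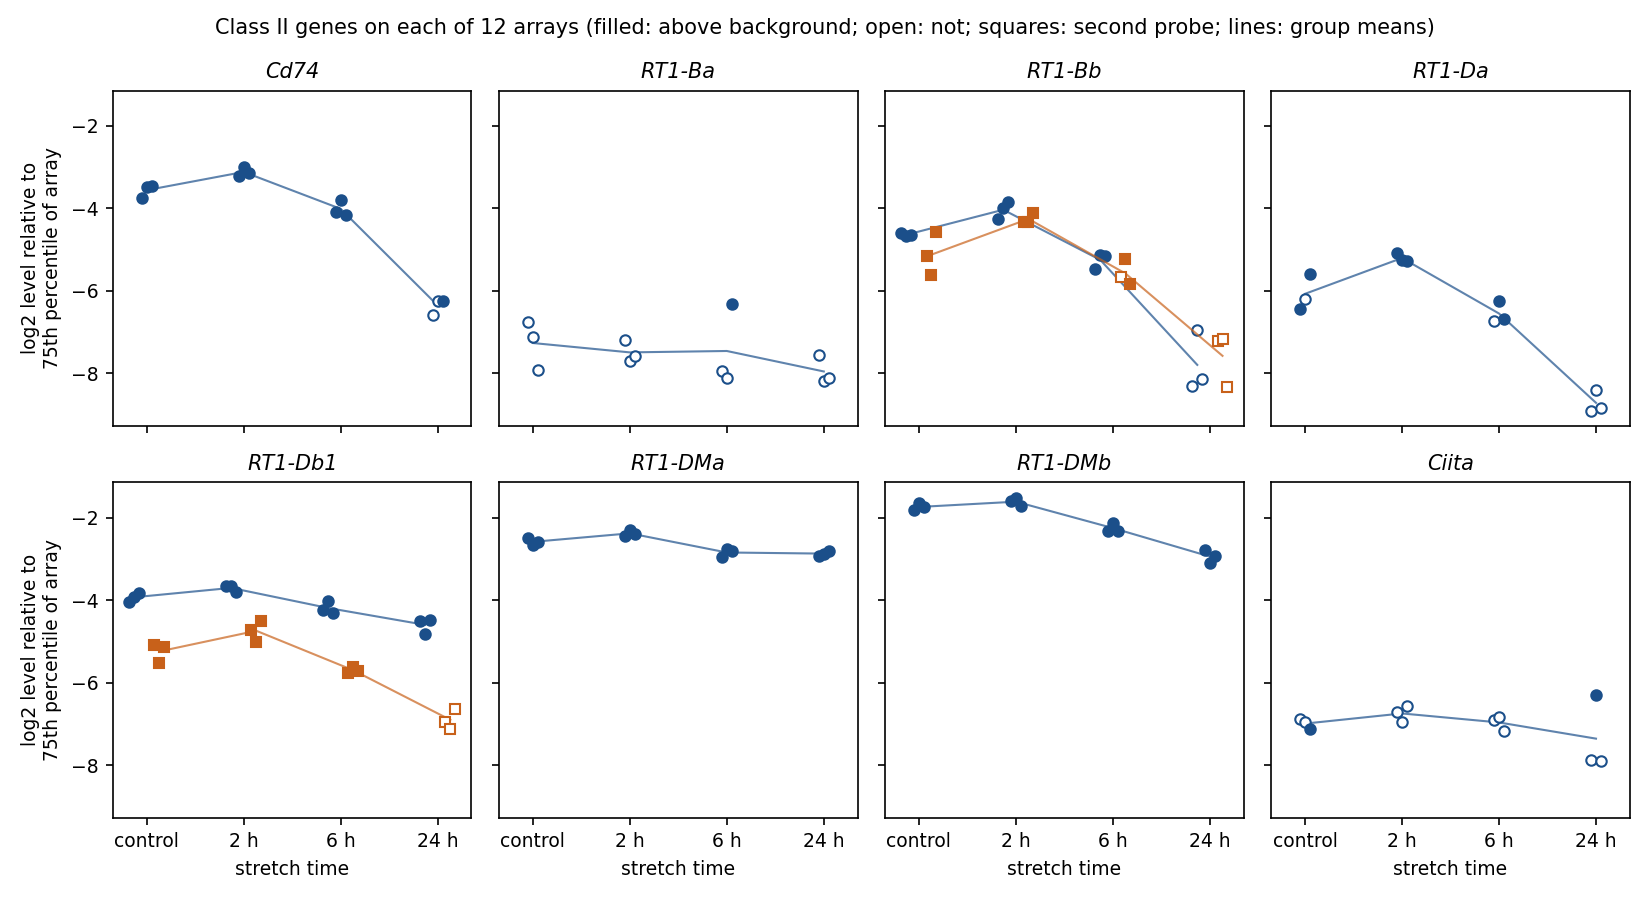
Level of each class II gene on each of the 12 arrays (y axis: log2 of the processed signal relative to the 75th percentile of the array; x axis: group). Points are arrays, filled where the probe was above background and open where it was not; lines join group means, and squares show the second probe of RT1-Bb and RT1-Db1. In the 24 h group Cd74 was above background on 1 of 3 arrays, and RT1-Bb and RT1-Da on 0 of 3.

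The RT1-D chains form the rat counterpart of HLA-DR. The probe of the alpha chain gene RT1-Da (chr20:4641104-4641163 in rn4, the build of the array files) read 1.16, 1.36 and 2.09% in the controls, 2.94, 2.65 and 2.57% at 2 h, 0.941, 1.32 and 0.981% at 6 h, and 0.209, 0.295 and 0.220% at 24 h. The 2 h and 24 h arrays did not overlap the controls, while the 6 h arrays did. The probe was above background on 2 of 3 control arrays, 3 of 3 at 2 h, 2 of 3 at 6 h and 0 of 3 at 24 h, so it entered the tests only through the 2 h group, where it was highest. At 24 h all 6 of its 6 spots carried a surrogate value that the image software sets for signals within the noise. RT1-Da differed from control by 0.87 ± 0.21 (SE) at 2 h (adjusted p = 0.0309) and by -0.48 ± 0.21 at 6 h (adjusted p = 0.152). With its 24 h values raised to a floor, it was 2.53-fold lower than control at 24 h. The fitted difference of -2.64 had an adjusted p of 6.30e-06, from 24 h values that were all surrogates. The 2.53-fold bound takes each dim value no lower than the dimmest signal that counted as above background on its array. That signal can come from any probe, so the floor is not a detection limit of this probe. Control array 2, at 1.36%, lay above the floor of its array and still did not count as above background. Such floored folds, called bounds here and below, apply to the processed signal alone and are not lower limits of the fall. Other treatments of background, given below, yielded smaller falls. Adjusted p-values printed beside bounds belong to the fitted difference, without the bound.

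The call of RT1-Da at 2 h depended on the processing and on which arrays were included. With normexp background correction, which adds an offset of 50 to every signal, the difference was 0.06 (adjusted p = 0.83), and in the deposited series matrix it was 0.27 (0.0128), still called. Without a filter on dim probes the call was lost (adjusted p = 0.0752), as it was on slide 1 alone (0.063). Omitting control array 1 left a log2 difference of 0.69 (adjusted p = 0.0898), and omitting control array 2 left 0.80 (0.101). Omitting the 2 h arrays in turn left 0.81 (0.0914), 0.89 (0.0662) and 0.91 (0.0615), none of them called.

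The beta chain gene RT1-Db1 had 2 kept probes, whose starts lie 1149 bases apart on chromosome 20 in rn4. The brighter probe (chr20:4672665-4672724), which stood for the gene in the tests, read 6.12, 6.58 and 7.08% in the controls, 7.99, 7.89 and 7.24% at 2 h, 5.30, 6.14 and 5.09% at 6 h, and 4.45, 3.57 and 4.46% at 24 h. It was above background on all 12 arrays, and only the 6 h arrays overlapped the controls. RT1-Db1 differed by 0.23 ± 0.10 at 2 h (adjusted p = 0.197), -0.26 ± 0.10 at 6 h (0.105) and -0.67 ± 0.10 at 24 h (3.81e-04). With spike-in scaling the 24 h difference was -0.24 (0.317), no longer called. The dimmer probe (chr20:4671516-4671575) read 2.97, 2.18 and 2.88% in the controls and 0.814, 0.720 and 1.006% at 24 h, when it was above background on 0 of 3 arrays. Its fitted fall at 24 h was 3.16-fold (adjusted p = 2.53e-05 over all kept probes). The floor used for RT1-Da raised 0 of its 24 h values, so the floored fold equals the fitted one and is not a lower limit either. The probes of this gene gave the same direction and different sizes, and the difference between them was not tested. The rat genome also holds the close copy RT1-Db2, and whether its RNA bound these probes was not tested.

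The RT1-B chains form the counterpart of HLA-DQ. The beta chain gene RT1-Bb also had 2 kept probes, with starts 1654 bases apart. The probe used in the tests (chr20:4730533-4730583 in rn4) read 4.12, 3.91 and 4.0% in the controls, 5.21, 6.34 and 6.91% at 2 h, 2.24, 2.87 and 2.83% at 6 h, and 0.316, 0.808 and 0.358% at 24 h. The 3 stretched groups each lay clear of the controls, above them at 2 h and below them at 6 h and 24 h. RT1-Bb differed by 0.61 ± 0.28 at 2 h (adjusted p = 0.217) and -0.61 ± 0.28 at 6 h (0.167), neither called. The fit shares 1 spread over all groups, and the SD of the log2 level was 0.73 at 24 h against 0.04 in the controls. When only the groups compared were fitted, both were called (adjusted p = 0.0393 at 2 h and 0.0159 at 6 h). Both were also called in the series matrix (0.00283 and 0.00954). Each was called in 6 of 25 alternatives. At 24 h it was above background on 0 of 3 arrays. For the processed signal, with dim values raised to the floor, it was then 6.46-fold lower than control (adjusted p of the fitted difference = 1.23e-05). The floor raised 2 of its 24 h values, and the value of 0.808% lay above it without counting as above background. The second probe (chr20:4732187-4732246) read 2.80, 2.03 and 4.19% in the controls and 0.674, 0.692 and 0.310% at 24 h. With the floor it was 4.53-fold lower at 24 h, in the same direction as the first (adjusted p = 2.12e-04 over all kept probes). The bound raised 1 of its 24 h values.

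The alpha chain gene RT1-Ba (chr20:4700973-4701032) read 0.415 to 0.928% in the controls, 0.479 to 0.688% at 2 h, 0.361 to 1.26% at 6 h and 0.346 to 0.529% at 24 h. It was above background on 6 h replicate 3 alone, so its level in the other 11 arrays was not measured by this probe. Without a filter on dim probes its difference at 24 h was -0.69 ± 0.47 (adjusted p = 0.318).

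Cd74, the invariant chain, is a chaperone of all class II dimers and is also a receptor for the cytokine MIF. Its probe (chr18:56765468-56765527 in rn4) read 7.48, 8.96 and 9.13% in the controls, 10.85, 12.6 and 11.2% at 2 h, 5.87, 7.23 and 5.63% at 6 h, and 1.05, 1.31 and 1.33% at 24 h. The 4 groups did not overlap, and at 24 h replicate 3 alone was above background. Cd74 differed by 0.44 ± 0.12 at 2 h, which missed the threshold (adjusted p = 0.05002), and by -0.45 ± 0.12 at 6 h (0.0308). At 24 h the difference was -2.80 ± 0.12 (2.13e-07), a fitted 6.95-fold fall. The 6 h call was lost on omitting control array 2 (-0.41, adjusted p = 0.0957) or 3 (-0.40, 0.102), or 6 h array 1 (-0.41, 0.105) or 3 (-0.38, 0.0994). It was also lost in the series matrix (-0.22, 0.064) and with quantile (-0.35, 0.126) or array median scaling (-0.35, 0.0627). The call held in 13 of 25 alternatives. The 6 h difference was 0.03 (0.89) when arrays were scaled on spike-in probes.

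Both genes of the peptide editor RT1-DM were above background on all 12 arrays. RT1-DMb, the beta chain gene (chr20:4830313-4830372), read 28.3, 32.0 and 29.8% in the controls, 33.0, 35.1 and 30.5% at 2 h, 20.2, 22.9 and 20.2% at 6 h, and 14.5, 11.6 and 13.1% at 24 h. The 2 h arrays overlapped the controls, and every 6 h and 24 h array lay below them. RT1-DMb differed by 0.13 ± 0.09 at 2 h (adjusted p = 0.417), -0.51 ± 0.09 at 6 h (0.00471) and -1.20 ± 0.09 at 24 h (3.82e-06), a 2.30-fold fall. With spike-in scaling the 6 h difference was -0.03 (0.9).

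RT1-DMa, the alpha chain gene of the editor (chr20:4844372-4844431), read 17.9, 15.8 and 16.5% in the controls, 18.4, 20.4 and 19.1% at 2 h, 12.97, 14.7 and 14.3% at 6 h, and 13.2, 13.7 and 14.3% at 24 h. The 24 h arrays lay within the range of the 6 h arrays, and both groups lay below the controls. RT1-DMa differed by 0.21 ± 0.07 at 2 h (adjusted p = 0.0823), -0.26 ± 0.07 at 6 h (0.0247) and -0.28 ± 0.07 at 24 h (0.00523). These differences were small enough for the scaling to set them: at 24 h they were -0.11 with quantile normalization (0.249), -0.09 with the array median (0.273) and 0.15 with spike-in probes (0.549). At 6 h they were -0.16 (0.162), -0.16 (0.122) and 0.23 (0.293) in the same order. The 6 h call was also lost on omitting control array 1 (-0.21, 0.0732) or 3 (-0.26, 0.0618), or 6 h array 1 (-0.20, 0.1) or 3 (-0.27, 0.051).

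Ciita, the coactivator, read 0.719 to 0.846% in the controls, 0.810 to 1.05% at 2 h, 0.700 to 0.881% at 6 h and 0.419 to 1.28% at 24 h with its probe at chr10:5087176-5087235. It was above background on 1 control array and 1 array at 24 h. Without the filter its difference at 24 h was -0.36 ± 0.36 (adjusted p = 0.513), so no change of Ciita was detectable with this probe.

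**Figure D2:**
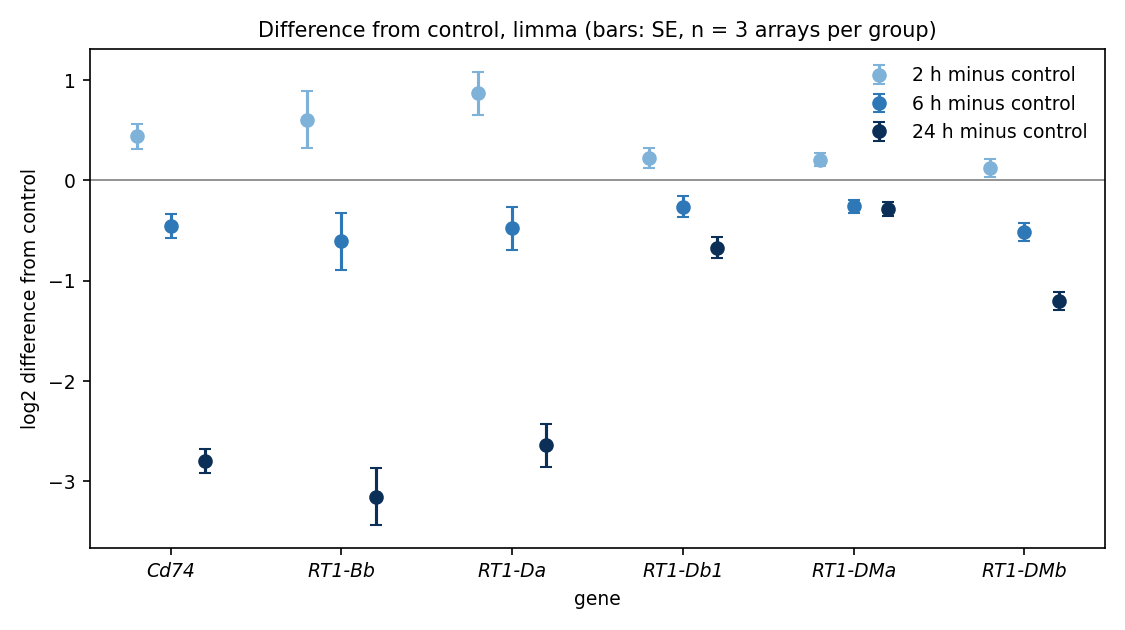
Log2 difference from control of the 6 tested class II genes (y axis) by gene (x axis) at 2, 6 and 24 h; points are limma estimates and bars are standard errors with n = 3 arrays per group. The 24 h estimates run from -0.28 for RT1-DMa to -3.15 for RT1-Bb, whose 24 h arrays were not above background.

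The slide bears on the 24 h values, since no slide held both control and 24 h arrays and the 6 h group alone lay on both. With the slide as a block, the 24 h difference from control was -2.59 for Cd74 (adjusted p = 2.92e-04), -3.31 for RT1-Bb (0.00409), -2.46 for RT1-Da (0.00430) and -1.11 for RT1-DMb (0.00310). It was -0.50 for RT1-Db1 (0.0928) and -0.33 for RT1-DMa (0.106), both no longer called. At 6 h the block left 1 of 3 calls, RT1-DMb (-0.48, 0.0193), and moved Cd74 to -0.38 (0.0994) and RT1-DMa to -0.27 (0.051).

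Neighbouring times were also compared directly. From 2 h to 6 h 6 of 6 tested members were called lower, against 6.8% of all genes called lower. The difference was -0.89 ± 0.12 for Cd74 (adjusted p = 0.00524), -1.34 ± 0.21 for RT1-Da (0.00783), -1.22 ± 0.28 for RT1-Bb (0.0266) and -0.64 ± 0.09 for RT1-DMb (0.00552). RT1-Db1 differed by -0.49 ± 0.10 (0.0172) and RT1-DMa by -0.46 ± 0.07 (0.00596). With the slide as a block the calls of RT1-Bb (-1.27, adjusted p = 0.0616) and RT1-Db1 (-0.43, 0.0616) were lost. The call of RT1-Bb was also lost on omitting any of the 2 h or 6 h arrays (6 of 12 omissions, adjusted p from 0.053 to 0.0922), and that of RT1-Db1 on omitting 2 h array 1 (0.0587) or 6 h array 1 (0.0681) or 3 (0.0616). Spike-in scaling left the calls of RT1-Bb and RT1-Da alone. From 6 h to 24 h 5 of 6 were called lower, against 15.5% of all genes. Cd74 differed by -2.34 ± 0.12 (1.11e-06), RT1-DMb by -0.69 ± 0.09 (3.74e-04) and RT1-Db1 by -0.41 ± 0.10 (0.0141). With 24 h values raised to the floor, RT1-Bb was 4.23-fold lower (adjusted p of the fitted difference = 1.34e-04) and RT1-Da 1.82-fold lower (5.91e-05). RT1-DMa differed by -0.03 ± 0.07 (0.800) between these times. The call of RT1-Db1 was lost with the slide as a block (-0.30, 0.251), with spike-in scaling (-0.46, 0.175) and on omitting 6 h array 2 (-0.33, 0.0576). Within the second slide, which held the 24 h group and 1 array of the 6 h group, the same differences were -2.20 for Cd74 (adjusted p = 0.0295), -2.04 for RT1-Da (0.0411), -2.65 for RT1-Bb (0.118), -0.63 for RT1-DMb (0.126) and -0.30 for RT1-Db1 (0.373). That within-slide fit was chosen after the data had been seen and assumes that the lone 6 h array varies like the others.

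The size of the 24 h fall depended on the treatment of background. With normexp background correction the 24 h difference was -1.39 for Cd74, -1.14 for RT1-Bb and -0.87 for RT1-Da. In the deposited series matrix it was -1.23, -0.87 and -0.47. For RT1-Bb and RT1-Da these falls were smaller than the bounds given above, which hold for the processed signal only. RT1-DMb, well above background throughout, moved from -1.20 to -0.99 and -0.88. These 4 genes were called lower at 24 h in every alternative run in which they were tested.

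**Figure D3:**
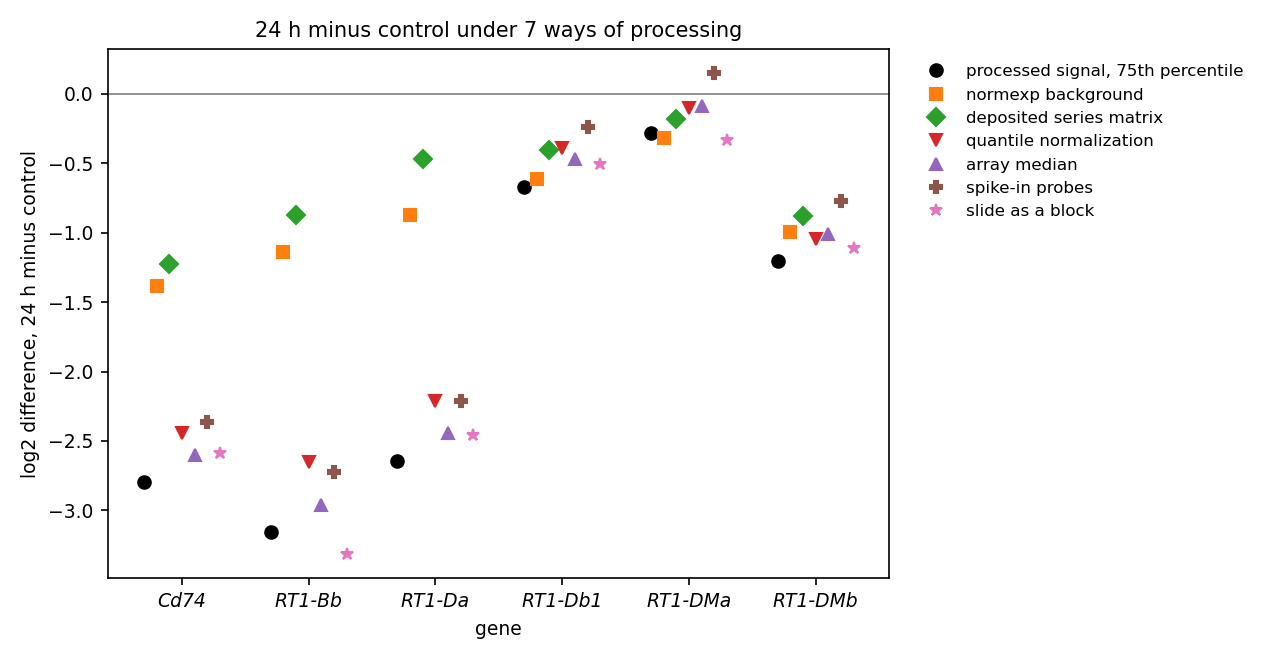
Log2 difference at 24 h from control (y axis) of the 6 tested class II genes (x axis) under 7 ways of processing the same arrays. Cd74, RT1-Bb, RT1-Da and RT1-DMb lie below 0 under all 7, and RT1-DMa lies above 0 under spike-in scaling.

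Genes that act with the members were taken from lists written for this work. Of 5 further class II genes, 3 were on the array (RT1-DOa, RT1-DOb and RT1-Ha) and 0 passed the filter. The regulators of class II transcription and of interferon-gamma signalling had 14 tested genes, with a median of -0.09 at 24 h. Of these, 1 was called higher and 7 lower, against 31.7% of all genes called lower. Among the larger changes were those of Spi1, the myeloid factor PU.1 (-1.08 ± 0.12, adjusted p = 5.83e-05), and Rfxank, a subunit of the RFX complex (-0.29 ± 0.05, 4.27e-04). The call of Rfxank was lost with spike-in scaling (where its difference was 0.14), array median scaling and the slide block. Rfx5, the DNA-binding RFX subunit, differed by -0.28 ± 0.10 (0.0348), and Irf1, an interferon-induced activator of Ciita, by 0.15 ± 0.05 (0.0357). Irf1, the gene called higher, and Rfx5 were named after their values had been seen. The call of Irf1 was lost with the slide block, and that of Rfx5 with the slide block, in the series matrix and under quantile, array median and spike-in scaling.

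Among 13 tested genes for endosomal processing and turnover of class II, 1 was called higher and 8 lower at 24 h. Their median was -0.24, and 31.7% of all genes were called lower. Ctss, the cathepsin that trims the invariant chain in professional antigen-presenting cells, fell by 1.83 on the log2 scale, with a standard error of 0.09 (adjusted p = 2.86e-07). Ctsz and Ctsh, further lysosomal cathepsins, differed by -0.86 ± 0.07 (3.95e-06) and -0.74 ± 0.05 (1.54e-06), calls that spike-in scaling removed. Ctsl, another cathepsin that can cut the invariant chain, was the gene called higher, at 0.17 ± 0.06 (0.0406), a call lost with the slide block, and was named after its value had been seen.

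Class I presentation, which displays cytosolic peptides to CD8+ T cells, had 21 tested genes on its list, with a median of -0.22 at 24 h. Of these, 1 was called higher and 9 lower, against 31.7% of all genes called lower. The largest changes were in Psmb8, an immunoproteasome subunit (-0.71 ± 0.11, adjusted p = 4.69e-04), and the class I heavy chain genes RT1-A2 (-0.52 ± 0.07, 1.28e-04) and RT1-CE5 (-0.32 ± 0.06, 0.00212). These heavy chain genes belong to a family of near-identical copies whose probes may bind several members. B2m, the light chain of class I, named here outside the rule, differed by -0.09 ± 0.06 (0.257). Spike-in scaling removed the calls of Psmb8, RT1-A2 and RT1-CE5, and turned the last to 0.11; array median scaling also removed that of RT1-CE5.

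Of 5 tested genes for co-stimulation and adhesion, 4 were called lower and 0 higher at 24 h, against 31.7% of all genes called lower. Their median was -0.41. They were led by Cd83, a membrane protein that stabilises class II at the surface of dendritic cells (-1.38 ± 0.09, 1.74e-06), Cd40, a receptor for T cell help (-0.50 ± 0.12, 0.00607), and Icam1, an adhesion ligand for lymphocytes (-0.41 ± 0.06, 5.37e-04). The call of Cd40 was lost under quantile, array median and spike-in scaling and with the slide block, and that of Icam1 with spike-in scaling, where its difference was 0.03. The co-stimulatory ligand genes Cd80 and Cd86 were below background on all 12 arrays.

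Spike-in scaling raised the median of all genes by enough to turn list medians near 0: the all-gene median became 0.17 at 2 h, 0.43 at 6 h and 0.35 at 24 h. Under it the 24 h medians were 0.34 for the transcription list, 0.19 for the processing list, 0.21 for class I and 0.03 for co-stimulation. The calls of Spi1, Ctss and Cd83 at 24 h held under that scaling and under the other 5 alternatives tried for these lists.

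Markers of cells that carry class II molecules were read beside the members. On the macrophage list 13 of 17 genes were tested, with a median of -1.35 at 24 h. Of these, 12 were called lower and 0 higher, against 31.7% of all genes called lower. Adgre1, which encodes the F4/80 antigen, differed by -2.57 ± 0.08 (adjusted p = 8.29e-08), C1qa, a complement chain made by macrophages, by -2.49 ± 0.11 (2.25e-07) and Aif1, the microglial and macrophage protein Iba1, by -1.96 ± 0.09 (2.74e-07). The summed level of the 17 macrophage markers, in multiples of the 75th percentile of the array, was 20.95 to 21.59 in the controls, 22.33 to 25.91 at 2 h, 19.67 to 21.6 at 6 h and 7.731 to 8.71 at 24 h. Cd163 and Marco were below background on all 12 arrays. The 2 h arrays thus lay above the controls, the 6 h arrays overlapped them, and the 24 h arrays lay below them.

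Of 8 markers shared by leukocytes, 6 were tested. At 24 h 6 of 6 were called lower, against 31.7% of all genes, with a median of -1.45. Lcp1, an actin-bundling plastin, differed by -1.64 ± 0.07 (2.13e-07), Ptprc, the CD45 phosphatase, by -1.58 ± 0.08 (4.95e-07) and Coro1a, a coronin, by -1.57 ± 0.06 (1.76e-07). Their summed level was 5.094 to 5.199 in the controls, 5.572 to 6.226 at 2 h, 4.662 to 4.897 at 6 h and 2.102 to 2.364 at 24 h. Cd52 and Was were below background on all 12 arrays. At 2 h 1 macrophage and 2 leukocyte markers were called higher, against 3.1% of all genes. At 6 h 1 of 13 and 2 of 6 were called lower, against 11.7% of all genes. Spike-in scaling gave 3 and 1 called higher and 0 and 0 lower at 6 h. At 24 h the macrophage and leukocyte markers were lower together with the class II genes, and their part in the result was not tested. In RNA from a whole culture, fewer cells of a type and less RNA per cell cannot be told apart.

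Most listed markers of dendritic cells, B cells and T cells did not pass the filter. On the dendritic cell list 0 of 7 measured genes passed the filter, and Flt3, Clec9a, Xcr1, Ccr7 and Batf3 were below background on all 12 arrays. On the B cell list 1 of 7 passed, Pax5 (-0.37 ± 0.08 at 24 h, adjusted p = 0.00449), and Cd79a, Ms4a1 and Cd22 were below background on all 12 arrays. On the T cell list 2 of 7 passed, Cd4 (-1.57 ± 0.19, 1.08e-04) and Cd3d (-0.61 ± 0.10, 7.38e-04), while Cd3e, Cd3g, Cd247 and Cd8a were below background on all 12. Pax5, Cd4 and Cd3d were named after their values had been seen; rat macrophages also carry CD4. The call of Pax5 was lost with quantile normalization (-0.21), array median scaling (-0.18) and the slide block (-0.29), and its difference was 0.06 with spike-in scaling; the call of Cd3d was lost with spike-in scaling and the slide block.

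Markers of the other heart cells changed by less at 24 h. The median was -0.55 for 7 endothelial genes (0 higher, 6 lower), -0.34 for 8 fibroblast genes (0 higher, 7 lower) and -0.34 for 10 cardiomyocyte genes (1 higher, 8 lower). Of all genes, 31.7% were called lower at 24 h. With spike-in scaling these medians were -0.12, 0.09 and 0.10, with 0, 0 and 0 genes called lower, while 10 of 13 macrophage and 5 of 6 leukocyte markers were called lower. With the slide as a block 4 endothelial, 4 fibroblast and 1 cardiomyocyte genes were called lower, beside 10 macrophage and 5 leukocyte markers. The difference between the lists and the class II genes was not tested.

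**Figure D4:**
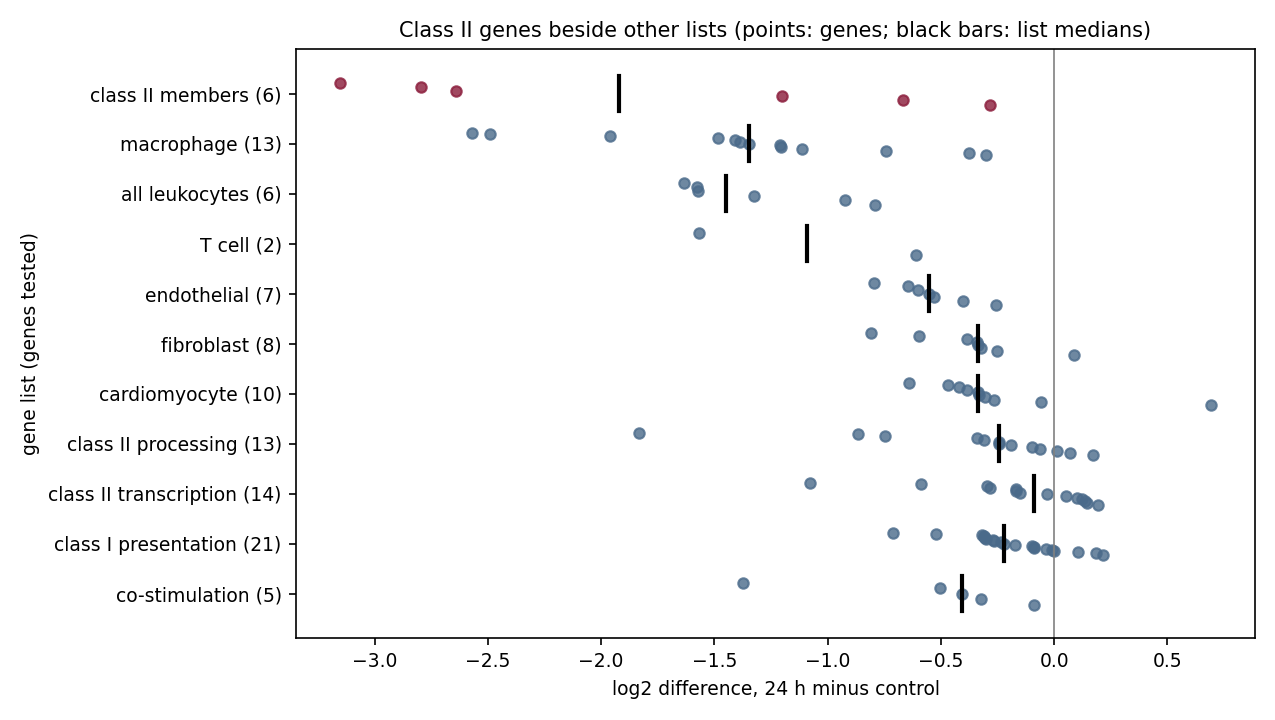
Log2 difference at 24 h from control (x axis) of each tested gene on each list (y axis, number of genes tested in brackets); points are genes and black bars are list medians. The class II members have a median of -1.92 (-1.27 with RT1-Bb and RT1-Da at their bounds, nearer 0 than the macrophage and leukocyte medians), the macrophage markers -1.35, the leukocyte markers -1.45 and the cardiomyocyte markers -0.34.

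The genes outside the members whose level most resembled that of Cd74 over the 12 arrays, by Pearson's r of the log2 level, were Trim25 (0.9964), Slamf9 (0.9924), Coro1a (0.9919), Hpgds (0.991) and Lcp1 (0.991). Over the 9 arrays without the 24 h group r was 0.9634, 0.9093, 0.9172, 0.9013 and 0.9131. Of the members, RT1-Da had r = 0.9809, RT1-Bb 0.9777, RT1-DMb 0.9518, RT1-Db1 0.9162 and RT1-DMa 0.7315. Over the same 9 arrays without the 24 h group, r of these members was 0.9402, 0.9319, 0.9341, 0.9722 and 0.8974 in that order. These values describe arrays in 4 groups that share the same treatments, so they mainly restate the course of the group means. Trim25, a ubiquitin ligase, changed by far less than Cd74 in size, at -0.51 ± 0.04 at 24 h (adjusted p = 7.12e-06), and by -0.08 (0.750) with spike-in scaling. Slamf9, a receptor of the SLAM family, differed by -2.13 ± 0.08 (1.76e-07) and Hpgds, the haematopoietic prostaglandin D synthase, by -1.96 ± 0.09 (2.74e-07), and both were called lower under the 6 alternatives tried for them.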

How the data were processed

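Cy3-labelled RNA of 12 cultures was read on 12 one-colour Agilent arrays. Per the file headers, Feature Extraction 11.0.1.1 made the processed signal, a linear intensity with background removed and no scaling between arrays, where the submitters' processing notes give 10.7.3.1, and probes are placed on rn4. Per the file headers, flags of 0 or 1 mark each spot, and these other values were used for filtering. The authors' series matrix was deposited as linear intensity for 28902 probes, with no word on its scaling, and was an alternative source.

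The signal was put on the log2 scale, outlier spots were left out, the 75th percentile of each array was subtracted, and spots of 1 probe were averaged. A probe counted as above background on an array when at least 0.5 of its usable spots were flagged so. The brightest kept probe stood for a gene. A model with 4 group means was fitted to 12 arrays in limma 3.58.1 (R 4.3.3), two-sided, and adjusted over all genes by Benjamini-Hochberg; the fit was tested on simulated data. Named genes were the 8 members, up to 3 called genes with the largest change at 24 h on each pathway, macrophage and leukocyte list, and the 5 genes most like Cd74. Some listed genes are not reported here by name. The members and lists were chosen with earlier results of these data known. Alternatives changed background, scaling, filter, probe choice, slide, replicate block and the arrays included. Probes of 2 members did not pass the filter. They were read by level and tested only in the run without a filter. No exon or UTR is assigned to the probes, since no annotation of rn4 was used.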

Additional observations from a re-analysis of the deposited data

Results flagged for a closer look

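Levels differed between neighbouring stretch times for most tested members, by the limma test of the difference itself, with p-values adjusted over all genes. The test compares the stretched groups directly, and stretch and time in culture cannot be told apart. Between 2 h and 6 h this held for Cd74 (-0.89), RT1-Bb (-1.22), RT1-Da (-1.34), RT1-Db1 (-0.49), RT1-DMa (-0.46) and RT1-DMb (-0.64), all log2 differences of the later from the earlier time. The call of RT1-Bb was lost with the slide as a block (adjusted p = 0.0616), without a filter (0.0719) and on omitting any 2 h or 6 h array (6 of 12 omissions), and that of RT1-Db1 with the slide block (0.0616) and in 3 of 12 omissions (2 h array 1, 6 h arrays 1 and 3). Between 6 h and 24 h it held for Cd74 (-2.34), RT1-Bb (-2.55), RT1-Da (-2.16), RT1-Db1 (-0.41) and RT1-DMb (-0.69); RT1-Bb and RT1-Da were not above background at 24 h, so their fitted values are no bounds. The call of RT1-Db1 there was lost with the slide block (-0.30, 0.251). RT1-DMa was the exception, at -0.03 between 6 h and 24 h (adjusted p = 0.800). Against control, the 2 h values of the 6 tested genes lay above 0 and the 6 h and 24 h values below 0, with 1 call among the 2 h values.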

How the results depend on the processing

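Of 759 recomputed member differences, 672 kept direction and side of the threshold, 63 lost a call, 21 gained one and 3 reversed. The reversals came with spike-in scaling: Cd74 at 6 h (0.031) and RT1-DMa at 6 h (0.23) and 24 h (0.15). The number of members called at 2 h, 1 as reported, was 0 with normexp, without a filter, and with probes above background on all 12 arrays (3 members tested), 2 with spike-in scaling, 3 with array median scaling, 4 in the series matrix and 3 with dim values raised to the floor, a setting chosen after seeing the data. At 6 h the 3 calls became 1 with quantile or array median scaling, with the slide as a block or without a filter, and 0 when scaled on spike-ins. At 24 h 6 became 3 with the filter on all 12 arrays, which left 3 members to test, 4 with spike-in scaling or the slide as a block (without RT1-Db1 and RT1-DMa) and 5 with quantile or array median scaling (without RT1-DMa). Between 2 h and 6 h 6 became 2 with spike-in scaling and 3 with that filter, and between 6 h and 24 h 5 became 2 with that filter and 2 on slide 2 alone. Leaving out single arrays gave 0 to 2 calls at 2 h (0 without control replicate 1 or 2 or any 2 h replicate, 2 without 6 h replicate 2 or 24 h replicate 1 or 2), 1 to 4 at 6 h (1 without control replicate 3 or 6 h replicate 1 or 3), 6 at 24 h, 4 to 6 between 2 h and 6 h and 4 to 5 between 6 h and 24 h. The cause of these changes was not tested.

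Same-numbered arrays did not deviate together (correlations from -0.108 to 0.103 over 18 pairs). Arrays with different numbers gave -0.144 to 0.172 over 36 pairs. Such values cannot show whether same-numbered cultures share an isolation. With the replicate block 2 members were called at 2 h in place of 1, and 3, 6, 6 and 5 in the other comparisons, as without it.

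The count of all genes called moved by more than 1.5 times under some settings: from 1322 down to 173 with spike-in scaling at 2 h, from 2408 to 1195 without 6 h replicate 1 and 6759 with spike-in scaling at 6 h, from 6888 to 2045 with the slide block at 24 h, from 1506 to 238 on slide 1 alone between 2 h and 6 h, and from 3601 to 240 on slide 2 alone between 6 h and 24 h. The share of 24 h calls that were lower was 66.3%, against 46.7% with quantile normalization, 28.3% with the array median, 10.4% with spike-in probes and 55.9% in the series matrix. Signal over background limits the 24 h values of Cd74, RT1-Bb and RT1-Da, and all values of RT1-Ba and Ciita.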
